A study of Meleagris gallopavo with 8 samples.

Results

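The extracellular matrix genes assembled from turkey breast muscle were examined: collagens, laminins, integrins, matrix metalloproteinases (MMPs) with their tissue inhibitors (TIMPs), ADAMTS proteases, and the matrix proteins decorin, lumican, fibronectin and osteonectin. Genes were chosen by name alone, from the transcript annotation that the authors merged over all samples. Each transcript carries a class from that annotation, and its ends were not compared with a reference here. A gene counted as assembled when its name stood on a transcript classed as an exact match, as contained or as a variant. A contained transcript lies inside a reference transcript, and a variant shares a splice junction with one but differs elsewhere. By this rule 59 of 7360 assembled gene names were members: 17 collagens, 6 laminin chains, 7 integrin subunits, 7 MMPs, 3 TIMPs, 11 ADAMTS genes of which 2 were ADAMTS-like, and 4 matrix proteins. The remaining 4 names, COL4A3BP, ITGB1BP1, ITGB1BP2 and ITGB1BP3, match the pattern but belong to other proteins: a ceramide transfer protein, a pair of proteins that bind the integrin beta 1 tail, and a nicotinamide riboside kinase.

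The tissue was pectoralis major of turkeys from the random-bred RBC2 line, harvested at 22 weeks of age. PSE (pale, soft and exudative) meat is a quality defect in which the muscle holds water poorly. The 4 PSE samples came from meat with low marinade uptake and the 4 normal samples from meat with high uptake, both read 24 h after slaughter, from a flock of 43 birds. Line, age and muscle were the same in both groups, and the labels do not say whether replicates within a group came from separate birds. The annotation holds no abundance, the depth of the libraries is unknown here, and no level was compared between PSE and normal muscle. What it does hold is structure: which forms of each gene were assembled, the length of every exon, and the sample assembly to which each merged transcript is credited.

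In skeletal muscle the matrix is layered. Fibrillar collagens form the fibres of the perimysium and endomysium, and collagen IV and laminin form the basement membrane around each myofibre, with collagen VI filaments beside it. Integrins span the fibre membrane and bind laminin, collagen or fibronectin outside the cell. MMPs and ADAMTS proteases cut matrix proteins, and TIMPs inhibit MMPs. The collagen triple helix is built from repeats of glycine followed by 2 other residues, so 1 repeat takes 9 bases of coding sequence.

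Many collagen exons had a length that was a multiple of 9 bp, the length of a whole number of such repeats. No sequence was read, so which of these exons encode the helix was not tested. Of 298 internal exons (exons with a splice site at both ends) in the 17 collagens, 156 had a length that was a multiple of 9 bp, or 52.3% (exact 95% interval 46.5 to 58.1%, for counting error only). The share over the internal exons of all assembled genes was 13.4%, and it was 13.2% in the 42 other members. A multiple of 3 bp, which keeps the reading frame when an exon is added or removed, was found for 242 of the 298 collagen exons, or 81.2%, against 38.9% over all assembled genes. Collagen exons were also short, with a median of 66 bp against 121 bp over all assembled genes. Exons of 1 gene are not independent of each other, so the intervals describe this annotation and no test was made.

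Certain lengths recurred. The commonest was 54 bp, the length of 6 repeats, with 33 of 298 collagen exons (11.1%) against 0.472% over all assembled genes. The next were 63 bp with 29 exons, 45 bp with 22, 36 bp with 13 and 27 bp with 12, each a multiple of 9. The 4 commonest lengths together made up 97 collagen exons (32.6%), and the same 4 lengths made up 1.32% of internal exons in genes outside the matrix set. In those genes the commonest internal exon length was 96 bp, at 1.04%.

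**Figure D1:**
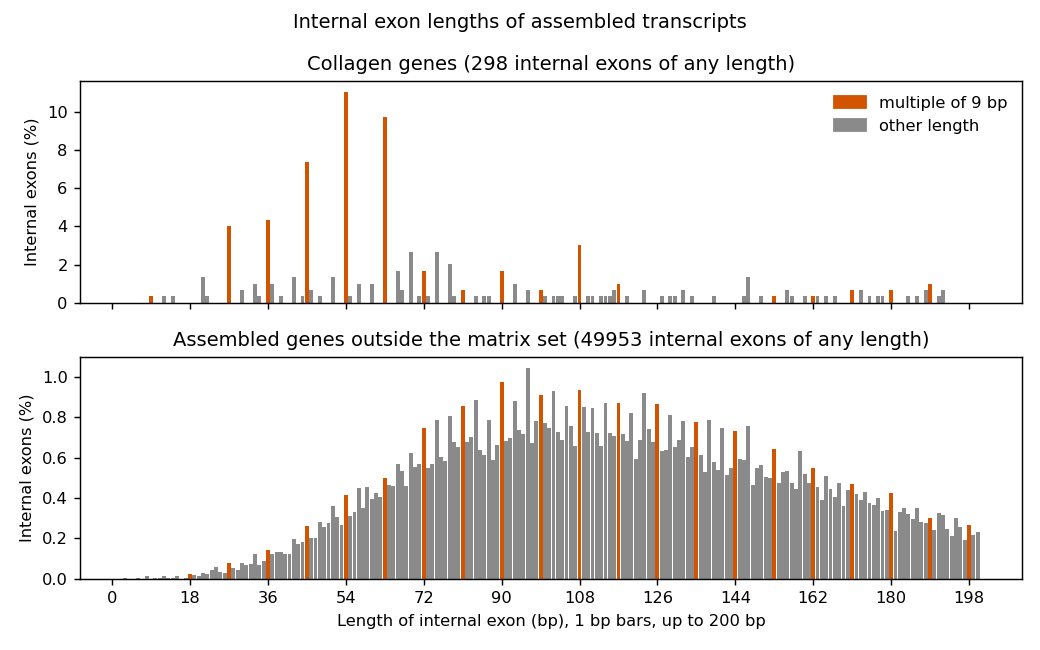
Length of internal exons in the collagens (upper panel) and in assembled genes outside the matrix set (lower panel), in bp on the horizontal axis and as a percent of internal exons on the vertical axis, whose scale differs between panels. Collagen exons stand in spikes at multiples of 9 bp, the highest at 54 bp with 11.1%, while no single length in the other genes exceeds 1.04%.

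Every collagen with at least 3 internal exons, 16 of 16, had a higher share of multiples of 9 bp than the 13.4% of all assembled genes, with a range of 23.8 to 80.0% and a median of 52.2%. Passing 13.4% was common: among all 5203 assembled genes with at least 3 internal exons, 2291 did so, with a median share of 11.1%. A share of 50% was reached by 135 of the 5203 (2.59%). The remaining collagen, COL21A1, had a single internal exon, of 78 bp. The shares differed among collagen types as follows.

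The fibrillar collagens (COL1A2, COL3A1, COL5A1 and COL5A2) had 34 multiples of 9 bp among 58 internal exons (58.6%). They also had 16 exons of 54 bp, most of them in the chains of collagen V, which starts and thins collagen I fibrils: COL5A1 had 9 among its 31 internal exons and COL5A2 had 4 among 11. In fibrillar collagens of vertebrates most helix exons are known to be 45, 54, 99, 108 or 162 bp long, and 29 of the 58 had one of these lengths, against 3.17% of internal exons over all assembled genes. COL3A1, the chain of the fine collagen III fibres, had 8 multiples of 9 bp among 11 internal exons. After its first exon, its longest assembled chain ran in exons of 108, 108, 54, 108, 108, 54 and 108 bp. Next came 283, 188 and 243 bp and a last exon of 1251 bp. COL1A2, a chain of collagen I, ended alike, with internal exons of 191 and 243 bp before its last exon of 818 bp.

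The filament-forming and basement membrane collagens also had many multiples of 9 bp. In collagen VI, COL6A1 and COL6A2 together had 14 exons of 63 bp and 2 of 54 bp, while COL6A3 had 3 of 63 bp and 4 of 54 bp. In collagen IV, COL4A1 had 3 exons of 45 bp, 3 of 54 bp and 2 of 63 bp, and COL4A2 had 3, 1 and 1 of these lengths. COL6A2 had 18 multiples of 9 bp among 27 internal exons, and COL6A1 had 13 among 27. COL4A1, a chain of the basement membrane collagen IV, had 14 among 29, COL4A2 had 10 among 20 and COL4A6 had 1 among 4. The multiplexins COL15A1 and COL18A1, basement membrane collagens with an interrupted helix, had 8 among 17 and 19 among 33. Of the fibril-associated collagens, which sit on the surface of fibrils, COL16A1 had 12 among 19, COL12A1 had 2 among 3 and COL20A1 had 1 among 3.

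COL28A1, a collagen with von Willebrand factor A domains, had the lowest share of the 16 collagens, with 5 multiples of 9 bp among 21 internal exons (23.8%). It had 5 exons of 69 bp, a multiple of 3 but not of 9.

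COL6A3, the long chain of collagen VI, carries von Willebrand factor A domains on both sides of its helix and had unusually long exons. Of its 36 internal exons 7 (19.4%) were at least 500 bp long, against 1.64% over all assembled genes. These 7 exons measured 567 to 630 bp and each was a multiple of 3 bp. The exons of 567 to 621 bp lay before a run of short exons, and the 630 bp exon lay after it, toward the carboxyl end. The lengths 567, 603, 621 and 630 bp are also multiples of 9 bp, so such multiples were not limited to short exons. In the other collagens 5 internal exons were that long: 2 in COL28A1 and 1 each in COL6A2, COL15A1 and COL18A1. Outside the collagens, LUM had an internal exon of 897 bp, and TIMP3 had one of 1496 bp that was internal only because a variant added a last exon of 8 bp.

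**Figure D2:**
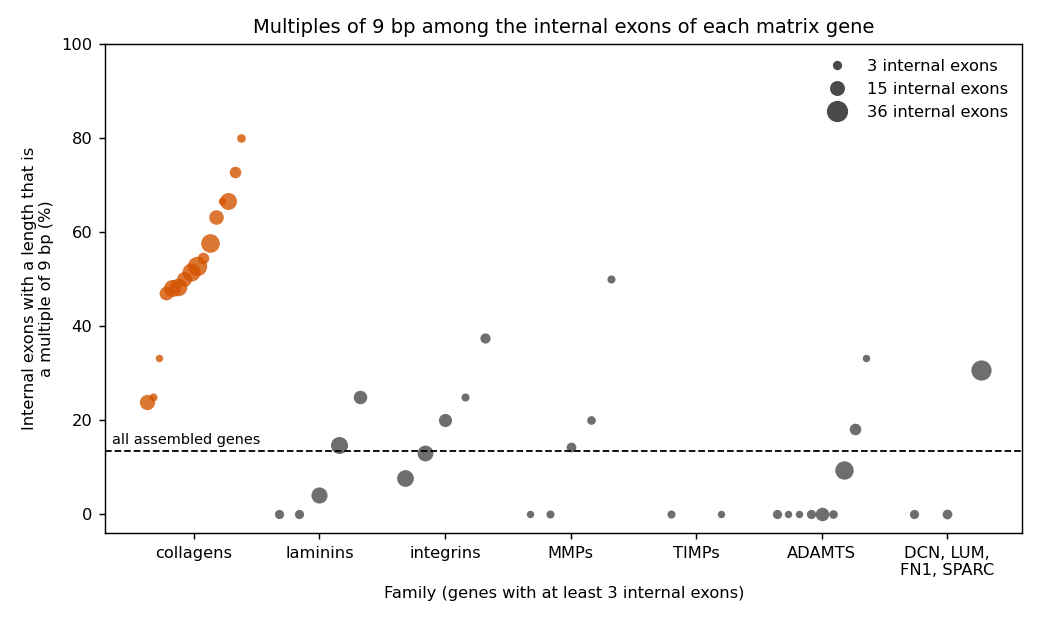
Percent of internal exons with a length that is a multiple of 9 bp (vertical axis) for each matrix gene with at least 3 internal exons, by family (horizontal axis). Each point is 1 gene, its area grows with its number of internal exons, and the dashed line marks the 13.4% of all assembled genes: the 16 collagens lie above the line, between 23.8 and 80.0%, while the other families lie on both sides of it or below it.

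The non-collagen matrix proteins each had a pattern of their own. FN1, fibronectin, is made of repeated modules, and 31 of its 39 internal exons (79.5%) were multiples of 3 bp. Multiples of 9 bp were 12 of the 39 (30.8%), against 13.4% over all assembled genes and above the lowest share of the 16 collagens, 23.8%. Multiples of 90 bp were 8 of the 39, including successive exons of 180, 90, 180 and 90 bp, against 765 of 50599 internal exons over all assembled genes. SPARC, or osteonectin, a calcium-binding glycoprotein, had 1 multiple of 3 bp among 7 internal exons. The small proteoglycans DCN (decorin) and LUM (lumican), which bind collagen fibrils, were each assembled as 1 transcript that matched the reference exactly, with 8 and 3 exons.

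The laminins, the trimeric proteins of the basement membrane, stood below the 38.9% of all genes in exons that are a multiple of 3 bp, with 21 among 80 (26.2%, exact 95% interval 17.0 to 37.3%). LAMB1 had 7 among 27, LAMC1, the most widely used gamma chain, 7 among 24, and LAMB2, the beta chain of the neuromuscular junction, 5 among 16. The integrins had 33 among 77 (42.9%), the ADAMTS genes 31 among 85 (36.5%) and the MMPs 11 among 24 (45.8%). The TIMPs had none among 9 (exact 95% interval up to 33.6%), all from 3 genes. Exons of related genes are not independent of each other, so these intervals are for counting error only and no test was made.

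Some members of the same family shared runs of exon lengths. Gene pairs were compared over successive internal exons in the direction of transcription, for the 42 genes with a transcript of at least 3 internal exons. Of these, 39 belong to the 6 families, and DCN, FN1 and SPARC were counted as a family each. A run of at least 3 equal lengths was found in 8 same-family pairs, 6 of 105 collagen pairs and 2 of 52 pairs in the other families. Of 704 pairs between families, 0 (0%) had one. Those pairs are no matched baseline for the collagens, in which 4 lengths made up 32.6% of internal exons. Whether collagens of the same type share more runs than those of different types was not tested. Without the transcripts credited to normal replicate 1 or to normal replicate 2 the count of same-family pairs was 5.

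LAMB1 and LAMB2 had the same 5 lengths in a row: 74, 189, 64, 203 and 121 bp. Both chains also held exons of 180, 113, 80 and 136 bp in a row, after which the lengths were 159, 128 and 124 bp in LAMB1 and 156, 128 and 118 bp in LAMB2. ADAMTS9 and ADAMTS20, secreted proteases of proteoglycans, shared 95, 95, 134, 92 and 105 bp. ADAMTS1 and ADAMTS15, proteases of the same class, shared 133 and 168 bp, followed by 287 bp in ADAMTS1 and 284 bp in ADAMTS15, a run of 2 equal lengths that fell short of the rule.

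Among the collagens, COL6A1 and COL6A2 shared the longest run of equal lengths, 63, 63, 63, 63, 51, 36 and 63 bp. COL4A2 and COL4A6 shared 147, 117 and 192 bp. COL5A1 and COL5A2 shared 54, 54 and 54 bp. COL6A2 and COL6A3 shared 27, 45 and 54 bp, COL4A1 and COL6A2 shared 63, 36 and 46 bp, and COL16A1 and COL5A2 shared 45, 54 and 54 bp. The chains of the last 2 pairs belong to different collagen types. The 46 bp exon of COL4A1 stood in 1 variant, credited to normal replicate 3. A contained transcript credited to the same sample had 42 bp in its place.

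The TIMPs had no such run: TIMP3 and TIMP4 were compared and shared none, even with differences of up to 6 bp allowed, and TIMP2 had too few exons. In the direction of transcription the internal exons of TIMP3, an inhibitor bound to the matrix, measured 83, 112 and 122 bp in its exact match, those of TIMP4 98, 115 and 125 bp, and those of TIMP2 109 and 125 bp. ITGB1 and ITGB5, integrin beta subunits, both had exons of 96 and 90 bp in a row and a penultimate exon of 167 bp in the exact match of ITGB1 and in ITGB5. ITGB2, the leukocyte beta subunit, also had an exon of 167 bp before its last assembled exon.

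Exact matches to the reference were fewer among the members. Of the 59 members 12 (20.3%) had an exact match, against 38.7% of all assembled genes, and 0 of 17 collagens and 0 of 6 laminins had one. The 12 were ITGA6, ITGA11, ITGB1, MMP7, TIMP2, TIMP3, ADAMTS1, DCN, LUM, ITGB1BP1, ITGB1BP2 and ITGB1BP3. ITGA11, a collagen receptor subunit, matched over 28 exons, and ITGA6, a laminin receptor subunit, over 25. ITGB1, the beta subunit that most matrix receptors share, matched over 15.

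A variant transcript was found for 35 members (59.3%), close to the 52.0% of all assembled genes. Among collagens the count was 14 of 17 (82.4%), all but COL16A1, COL20A1 and COL21A1. The longest chains of variants were those of ADAMTS20 with 34 exons, LAMC1 with 26, FN1 with 23 and COL6A1 with 22. The other proteases with a variant were MMP15 and MMP17, both bound to the membrane, with up to 7 and 9 exons, ADAMTS13, which cuts von Willebrand factor, with 5, ADAMTS15 with 8, ADAMTS9 with 10 and ADAMTS2 with 5. ADAMTSL3 and ADAMTSL5, which lack a protease domain, had variants of 6 and 2 exons, and a contained transcript of ADAMTSL3 had 7. MMP7, a secreted metalloproteinase, matched its reference over 6 exons and ADAMTS1 over 8.

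Much of the collagen assembly was in pieces. Contained transcripts made up 85 of the 124 collagen transcripts (68.5%), against 37.9% over all assembled genes. COL3A1 and COL4A1 held 40 of the 85 between them, and without these 2 genes the share was 56.2%. A high share was not particular to collagens: it was 66.7% in the MMPs, 65.4% in the ADAMTS genes and 64.3% in the laminins. The integrins had 45.5%, the matrix proteins 10.0% and the TIMPs 0%. Among collagen types it ran from 88.5% in the fibrillar and 82.8% in the basement membrane collagens to 26.7% in collagen VI and 16.7% in the multiplexins. Members known only from contained pieces numbered 16 (27.1%), against 20.1% of all assembled genes. They were the laminin alpha chains LAMA2, LAMA3 and LAMA5, the integrin subunits ITGAV, ITGB2 and ITGB3, the metalloproteinases MMP16, MMP19, MMP23B and MMP24, the proteases ADAMTS5, ADAMTS10 and ADAMTS12, and the collagens COL16A1, COL20A1 and COL21A1. LAMA2, the alpha chain of the muscle basement membrane, was reduced to 3 exons and 383 bp of transcript. MMP16 was a single piece of 806 bp, and ADAMTS5 and ITGB3 had 2 exons each.

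**Figure D3:**
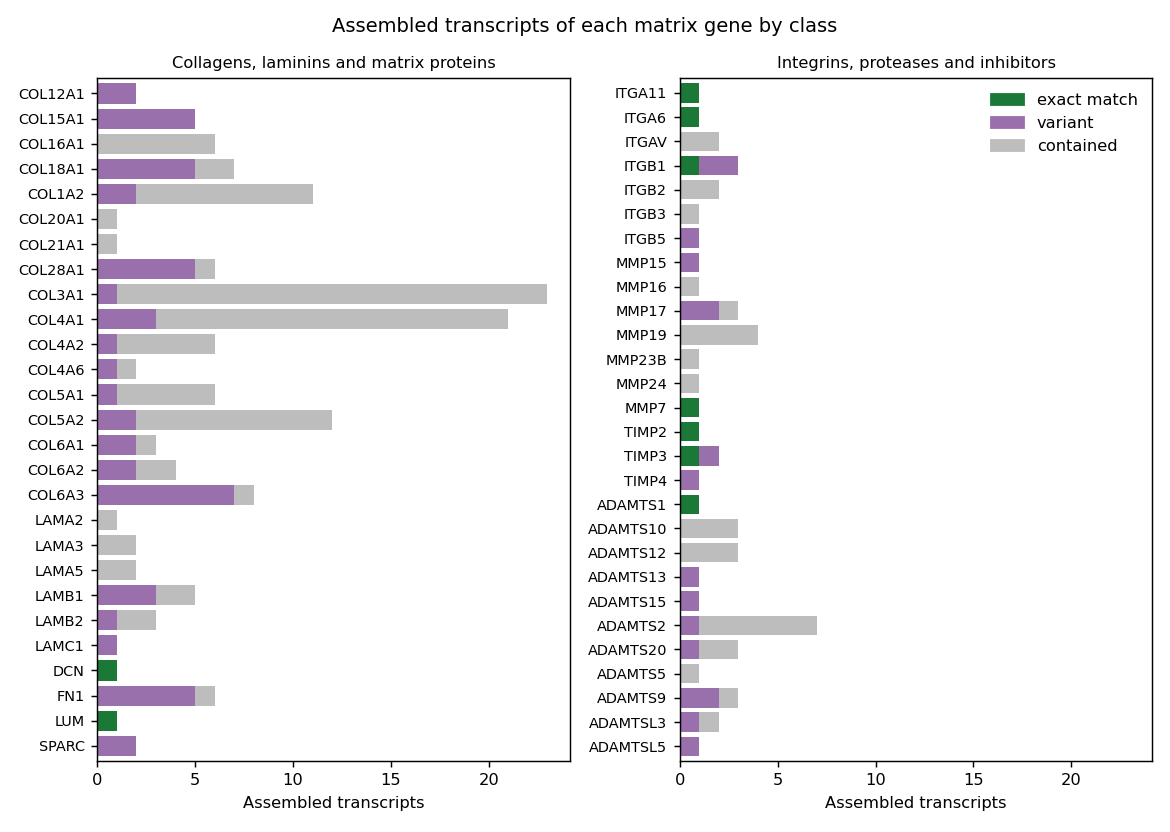
Number of assembled transcripts (horizontal axis) of each matrix gene by class: exact match, variant, or contained inside a reference transcript. COL3A1 with 23 and COL4A1 with 21 have the most, nearly all contained, and exact matches are seen among integrins, TIMPs, MMP7, ADAMTS1, DCN and LUM but in no collagen or laminin. The 4 genes that match by name only are not drawn.

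Of the 124 collagen transcripts 45 (36.3%) consisted of 1 exon, against 5.74% over all assembled genes. They belonged to 4 genes: COL3A1 with 18, COL4A1 with 12, COL5A2 with 10 and COL1A2 with 5. They were short, 57 to 170 bp with a median of 98 bp, whereas the 870 single-exon transcripts of other assembled genes had a median of 260.5 bp. In COL3A1 the 18 pieces measured 57 to 116 bp. They lay one behind another before and beside the start of the longest chain. The other 5 transcripts were spliced, and 2 of them reached the end of the gene. ADAMTS2, the protease that trims the amino end of procollagen, was also broken up, into 6 contained pieces and 1 variant.

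**Figure D4:**
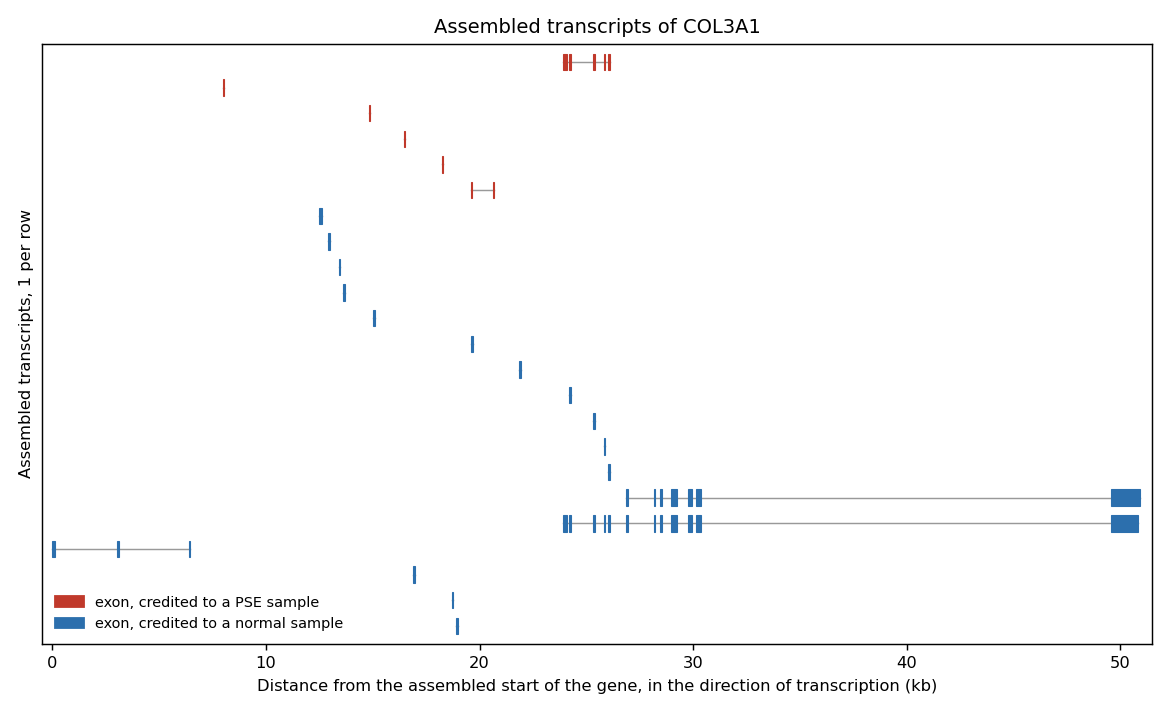
Assembled transcripts of COL3A1, 1 per row, with exons as boxes to scale against the distance from the assembled start of the gene in kb, coloured by the group of the sample assembly each is credited to (PSE red, normal blue). The 18 single-exon pieces lie in the earlier part of the 50904 bp span, and only 2 transcripts reach the end of the gene.

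Skipped exons were rare. An internal exon of 1 transcript that another transcript of the gene spliced out was found in 5 members (8.47%), next to 8.40% of all assembled genes. There were 6 such exons: 1 each in ITGB1, FN1, ITGB1BP1 and ITGB1BP2, and 2 in COL6A3. Of the 6, 5 had a length that was a multiple of 3 bp, and over all assembled genes the share of skipped exons was 63.0%. Without the transcripts credited to normal replicate 2 the count was 1.

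The skipped exon of ITGB1 measured 81 bp (chromosome 6, 14131980 to 14132060, plus strand). It lay between the 167 bp exon and the last exon, in 1 of 3 transcripts. The exact match, credited to normal replicate 4, lacked it. The 2 variants, both credited to normal replicate 1, had the same exons except for this one, which 1 had and the other lacked. In mammals the muscle form of the beta 1 subunit, beta 1D, takes a different cytoplasmic tail from an extra exon near the end of the gene. The annotation does not name the turkey exon, and its sequence was not read here.

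FN1 skipped an exon of 270 bp (chromosome 7, 2992564 to 2992833, plus strand). It stood in 1 transcript credited to normal replicate 2 and was missing from 2, credited to normal replicates 1 and 2. A contained piece credited to normal replicate 4 began with 23 bp that ended at the same base as this exon. In mammals fibronectin has extra domains, each a whole type III module on 1 exon, that are included or skipped by cell type. The annotation does not say which module the 270 bp exon encodes. A second difference between these transcripts was an exon of 150 bp in the one credited to normal replicate 1 and of 156 bp in those credited to normal replicate 2.

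COL6A3 varied near its carboxyl end. Exons of 180 bp (chromosome 7, 2510569 to 2510748, minus strand) and 54 bp (2510403 to 2510456) were both present, or the 54 bp exon was shortened to 51 bp, or the 180 bp exon was absent, or both were absent. Both forms credited to PSE replicate 1 kept the 180 bp exon, with 54 bp in 1 and 51 bp in the other. All 4 forms were credited to normal replicate 2. The absence of a form from the PSE credits does not show that PSE muscle lacked it, since each merged transcript is credited to 1 assembly. ITGB1BP1 skipped an exon of 150 bp, and ITGB1BP2, or melusin, a muscle protein that binds the beta 1 tail, skipped one of 146 bp, which is not a multiple of 3.

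**Figure D5:**
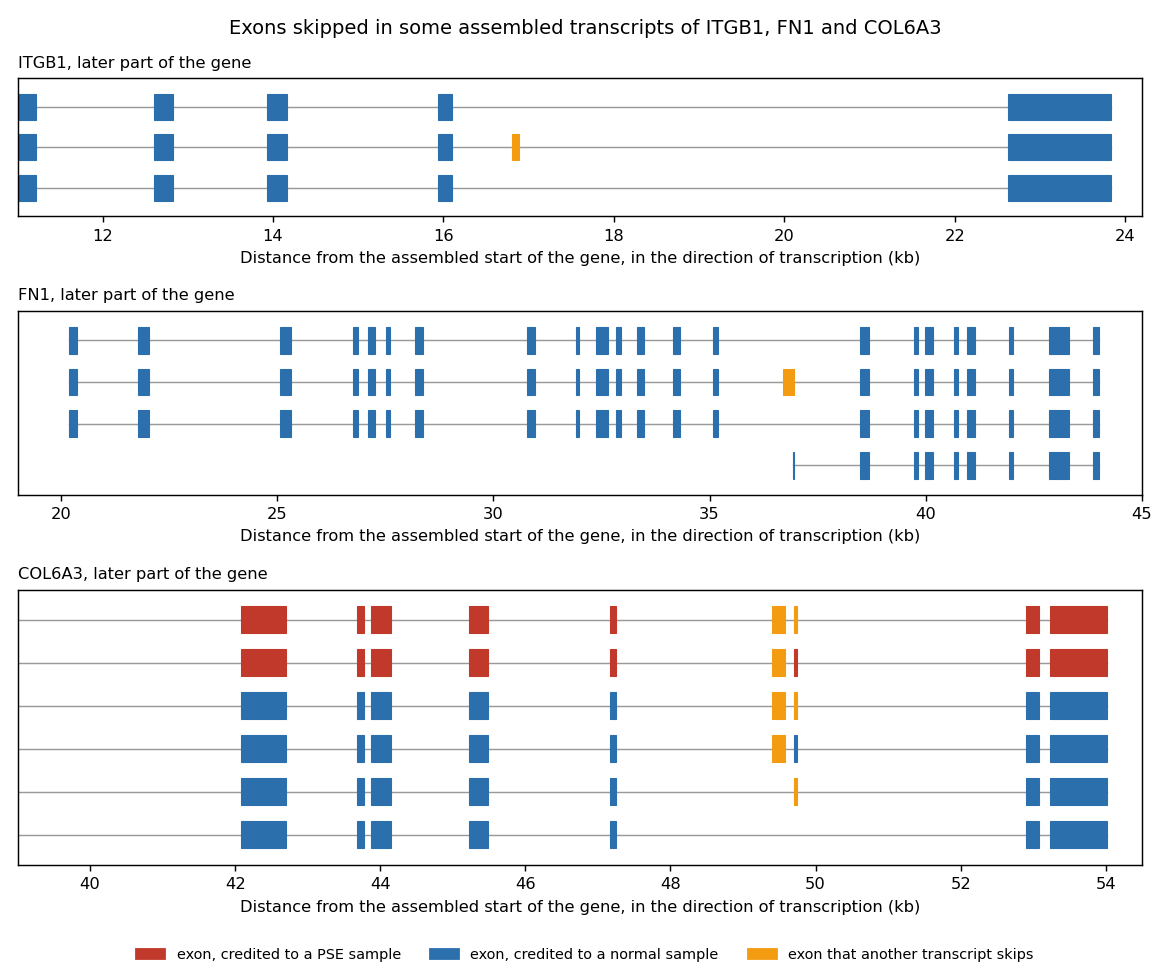
Later part of the ITGB1, FN1 and COL6A3 transcripts that reach it, 1 per row, with exons as boxes to scale against the distance from the assembled start in kb. Orange boxes are exons skipped by another transcript: 81 bp in ITGB1, 270 bp in FN1, and 180 and 54 bp in COL6A3. Red boxes are credited to PSE samples and blue boxes to normal samples, and the orange boxes belong to the transcript of their row.

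When skips of several exons at once were counted as well, collagens had 9 skips over 6 junctions in 5 genes. All 9 removed a multiple of 3 bp, against 63.0% of skips over all assembled genes, and 6 of 9 removed a multiple of 9 bp, against 20.8%. The internal exons of the collagens were themselves multiples of 3 bp in 81.2% and of 9 bp in 52.3%. The shares over all assembled genes are therefore no matched baseline, and no trait of collagen skipping can be read from them. In COL5A2 a transcript credited to PSE replicate 2 lacked exons of 45 and 54 bp, the length of 11 repeats, that one credited to normal replicate 1 held. In COL18A1 a transcript credited to normal replicate 1 lacked exons of 72 and 63 bp, the length of 15 repeats, that one credited to PSE replicate 1 held. Of 2 COL6A1 transcripts credited to normal replicate 2, 1 lacked exons of 63, 90, 63 and 63 bp, the length of 31 repeats. Whether these exons encode helix repeats was not tested, and the credits do not compare PSE with normal muscle. In COL4A1 a transcript credited to normal replicate 1 lacked 11 exons with 591 bp, a multiple of 3 but not of 9, which counts as 2 skips because that stretch was assembled in 2 forms. The remaining skips were those of COL6A3, combinations of its 180 bp exon and its exon of 54 or 51 bp. The 9 skips share junctions and genes, and without the transcripts credited to normal replicate 1 the count was 5, without those credited to normal replicate 2 it was 4.

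Several members are neighbours in the genome. In 5 pairs no other assembled gene lay between the 2 members. COL6A2 and COL6A1 followed each other on 1 strand of chromosome 7, 21.0 kb apart between assembled ends. LUM and DCN did so on chromosome 1, 18.5 kb apart, and ADAMTS1 and ADAMTS5 on the same chromosome, 47.4 kb apart. COL3A1 and COL5A2 ran toward each other on chromosome 7 with 15.1 kb between their ends. COL4A2 and COL4A1, the 2 main chains of collagen IV, ran away from each other on chromosome 8, with 93.9 kb between their assembled ends. In mammals these collagen IV genes are known to stand head to head with a shared promoter, and the assembled ends here need not be the true starts. In the RefSeq table of assembly Turkey_5.1, used for names and order only, 4 of the 5 pairs were also next to each other among protein-coding genes. For the fifth, LUM was not matched by symbol.

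Chromosome 7 held 11 of the 59 members (18.6%), against 3.67% of all assembled genes. They were, in order along the chromosome, ITGB2, COL6A2, COL6A1, COL18A1, COL6A3, FN1, ITGAV, COL3A1, COL5A2, ITGA6 and ITGB5. Neighbouring members are not independent draws, and no test was made.

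Further transcripts carried members' names under classes that the rule leaves out. On the opposite strand of an exon there were 106 transcripts, of 15 members, and 94 of them had a single exon. Of the 106, 77 lay opposite 7 collagens, led by COL6A3 with 20, COL4A2 with 19, COL1A2 with 13 and COL4A1 with 10. The median share of such a transcript that lay opposite assembled exons of the named gene was 94.6%, while 29 of the 106 touched none. The same counts over all assembled genes were not made, so no trait particular to collagens or other members can be read from them. The strand protocol was not given in the sources used here, and without it reads from a gene and from its opposite strand cannot be told apart.

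Inside introns of reference transcripts lay 25 transcripts under the name LAMB2, 11 under ADAMTS9, 10 under SPARC and 7 under COL3A1, also without a count over all assembled genes. All 25 of LAMB2 and all 10 of SPARC lay outside the span of the assembled exons of the gene, by up to 205 and 140 kb. A further 7 names matched the rule only under such classes and were not counted as members: ADAMTS3, ADAMTS8, COL8A1, COL9A1, COL9A3, COL17A1 and COL23A1. COL1A1, MMP2, ITGA5 and ITGA7 were not among the 66 names that the rule matched under any class, so they were not analysed here. A name that was not matched need not mark a missing gene.

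Credits for the merged transcripts were spread unequally over the samples. Of the 210 member transcripts, PSE replicates 1 to 4 were credited with 20, 9, 2 and 0, and normal replicates 1 to 4 with 86, 61, 17 and 15. PSE samples were thus credited with 31 (14.8%) and normal samples with 179 (85.2%), and over all assembled genes the shares were 10.4 and 89.6%. Over all assembled genes the credits fell in the order of the sample list. They fell from 7861 to 1143 over normal replicates 1 to 4, then from 852 to 42 over PSE replicates 1 to 4. Whether a transcript shared by several samples is credited to the first one listed was not tested. All 21 transcripts of COL4A1 were credited to normal samples, 17 of them to normal replicate 1. COL3A1 had 6 credited to PSE samples and 17 to normal samples. A credit names 1 assembly per merged transcript and is no measure of expression, so these counts do not compare PSE with normal muscle.

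The genes that make and anchor the matrix were assembled in part as well. Of 24 symbols for collagen processing 17 were assembled. P4HA1, P4HA2 and P4HA3, catalytic subunits of prolyl hydroxylase, had up to 14, 15 and 9 exons. PLOD1, a lysyl hydroxylase, had 9 transcripts of which 8 were contained, and SERPINH1, the collagen chaperone HSP47, had 3. The multiples of 9 bp among their internal exons were 12 of 131 (9.16%), beside 13.4% over all assembled genes, and the difference was not tested.

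Of 35 symbols of other matrix proteins 22 were assembled. HSPG2, the basement membrane proteoglycan perlecan, led with 15 transcripts, 11 of them variants. POSTN (periostin) and TNC (tenascin C) had up to 22 exons each. NID1 and NID2, the nidogens that link laminin to collagen IV, had up to 19 and 8. ELN, elastin, had multiples of 3 bp in 4 of 4 internal exons. Over the whole list they were 103 of 218 (47.2%), beside 38.9% over all assembled genes.

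Of 15 symbols of transforming growth factor beta signalling 7 were assembled. LTBP1 and LTBP2, which hold the latent growth factor in the matrix, had multiples of 3 bp in 18 of 19 and 23 of 28 internal exons. Over the whole list they were 57 of 86 (66.3%), with 0 of 4 in TGFBR2, beside 38.9% over all assembled genes. Of 20 symbols for adhesion inside the fibre membrane 12 were assembled. Among these, TLN2, the muscle talin that binds integrin beta tails, had the longest chain, with 50 exons, and DMD, dystrophin, had 10 transcripts and 3 skipped exons.

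Markers of several cell types were assembled, which shows presence in the merged annotation and no level. Of 16 myofibre symbols 5 were assembled, TNNI2, PVALB, NEB, MYBPC1 and MYOZ1, all genes of skeletal muscle. Assembled were also 8 of 10 further fibroblast markers, among them PDGFRA, THY1, DPT and PI16, and 12 of 15 endothelial and pericyte markers, among them CDH5, VWF and PDGFRB. The counts were 4 of 6 for smooth muscle, 5 of 9 for adipocytes, 9 of 12 for leukocytes, 2 of 8 for nerve and Schwann cells and 1 of 8 for red cells. Names differ between annotations, so a symbol that was not matched need not mark a missing gene. MFAP5 and ENG stood in 2 lists each, and which cells made the matrix transcripts was not tested.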

How the data were processed

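Messenger RNA of 8 pectoralis major samples, 4 PSE and 4 normal, was sequenced with 2 libraries per lane, per the labels' protocols; input was 10 µg and the RNA integrity number at least 8. The submitters' processing notes name TopHat, Cufflinks, HTSeq and DESeq, without versions or roles. No source used here names the genome build. The exon coordinates, classes and assembly names used here are those of the authors' deposited merged annotation (41982 transcripts, 23108 loci), 1-based; each transcript's own name begins with that of 1 sample assembly, matched to a sample title, and this gave the credits. The authors also deposited read counts per locus, which were left out because the 8 value columns are unnamed and could not be tied to samples. The depth per sample is therefore unknown, and the planned comparison of PSE with normal samples could not be made. Correlations of partner genes, family shares, spreads and covariation were planned over all 8 columns and need no sample names, but were not made either.

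Members and lists were chosen with earlier results of these data known, and all comparisons reported here were chosen after seeing the annotation. The planned rule for named genes rested on counts, so only its part on the most transcripts could be applied, and genes singled out were chosen after their values were seen. Distinct internal exons (both ends at a splice site) of exact, contained and variant transcripts were pooled per gene in Python 3.11.15 with NumPy 2.4.6. Shares stand beside those of all assembled genes, with exact Clopper-Pearson 95% intervals (SciPy 1.17.1). The counts of multiples of 9 bp and of single skipped exons were tested on a simulated annotation with all genes on the plus strand. Skips of several exons and shared runs of lengths were not tested in this way. A skipped exon is one whose neighbours another transcript joins directly. Of the 59 members 51 matched a RefSeq symbol of Turkey_5.1. Alternatives changed the classes and exon definitions, or dropped the transcripts credited to 1 sample.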

Additional observations from a re-analysis of the deposited data

Results flagged for a closer look

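Among the counts of transcripts credited to each sample, 4 had 1 sample far from the other 3 of its group. The gap relative to the group's range was above Dixon's 95% critical value. Chance meets this rule in about 1 in 20 groups of independent values from a normal distribution. That rate need not hold for small, tied counts of overlapping sets. Credits over all assembled genes were uneven too: 852, 472, 290 and 42 for PSE replicates 1 to 4, and 7861, 3449, 1819 and 1143 for normal replicates 1 to 4. In each of the 4 flagged counts the sample was replicate 1 of its group, the one with the most credits over all assembled genes. Whether the flags follow from the order of crediting was not tested. The rule was also applied to other sets and groups, which did not meet it. Of the members outside the collagens, PSE replicate 1 was credited with 10 transcripts, and the other PSE replicates with 1, 1 and 0. Of COL1A2, PSE replicate 1 had 2 and the other PSE replicates 0, where the gap relative to the range is 1.00 whatever the count. Of COL3A1, normal replicate 1 had 12 and the other normal replicates 1, 2 and 2. Of COL4A1, normal replicate 1 had 17 and the other normal replicates 1, 2 and 1.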

How the results depend on the processing

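No paired analysis was possible because the columns of counts carry no sample names, and other scalings, pseudocounts, minimum counts, left-out columns and the replicate block were not run for the same reason. The settings that follow were chosen after seeing the data. Leaving out 1 sample means that the transcripts credited to it were dropped, with no new merge. Such a transcript may also have been assembled in other samples, so the ranges do not show what a merge without that sample would give. PSE replicate 4 was credited with 0 member transcripts, so dropping it could change nothing. The share of collagen internal exons that are a multiple of 9 bp was 52.3%, lay between 53.1 and 54.3% under changes of class or merging of overlapping exons and between 51.9 and 54.4% without 1 sample's transcripts, and was 36.8% with first and last exons added, when it was 12.7% over all assembled genes. The share that is a multiple of 3 bp was 87.2% from contained transcripts only and 62.8% with first and last exons added, and 80.5 to 82.5% without 1 sample. Contained transcripts were 56.2% of collagen transcripts without COL3A1 and COL4A1, 50.6% among spliced transcripts, and 62 to 74.4% without 1 sample. The share among spliced transcripts of all assembled genes was not computed, so the 50.6% has no baseline here. With exact matches only, 12 members were left, and 48 to 59 without 1 sample. Members with at least 2 variants numbered 16, and those with a variant 26 to 35 without 1 sample. Exons inside any intron of another transcript numbered 81, and skipped exons 1 to 6 without 1 sample. Same-family pairs with a run of lengths within 6 bp numbered 31, when 10 of 704 pairs between families had one, and pairs with equal lengths 5 to 8 without 1 sample. Collagen skips numbered 4 to 9 without 1 sample. Which transcripts exist depends on the depth of each sample, which is unknown here.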
